A study of Homo sapiens with 4 samples.

Results

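This account describes 10 genes of the AP-1 and immediate early group in 2 human gastric cancer cell lines after knockdown of the homeobox gene HOXB9. The members were taken by symbol from the table of FPKM values (fragments per kilobase of transcript, corrected for library depth), where they hold 10 of 57815 rows: FOS, FOSB, FOSL1, FOSL2, JUN, JUNB, JUND, EGR1, EGR3 and IER2. AGS and MKN1 cells received, by Lipofectamine 2000, an siRNA against HOXB9 (siHOXB9) or a scrambled siRNA (siScramble), which makes 4 libraries with 1 library per line and siRNA. The labels name the control genotype WT and the other HOXB9 knockdown, and both siRNA groups went through the same transfection. No untransfected cells and no second siRNA against HOXB9 are among the samples. Differences within a line therefore have no replicate check, and an effect of the siRNA that is independent of HOXB9 cannot be told apart from the knockdown.

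AP-1 is a dimer of basic leucine zipper proteins. JUN proteins can pair with each other or with FOS proteins, whereas FOS proteins need a JUN partner to bind DNA. FOS, FOSB, JUN, JUNB, EGR1, EGR3 and IER2 belong to the immediate early genes, which growth factors, serum and stress switch on within minutes, without new protein synthesis, and whose mRNAs are short-lived. FOSL1 and FOSL2 (also called FRA1 and FRA2) are induced later and last longer in cells with sustained ERK signalling, and JUND is made more constantly. In carcinoma cells FOSL1 is well known in connection with invasive, mesenchymal behaviour.

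From the spacing of low values, the depth was estimated at 12900000 fragments in the AGS control and 12510000 in its knockdown, and at 11550000 and 10750000 in the MKN1 pair. The targeted gene was at 16.4 FPKM (siScramble) and 4.44 FPKM (siHOXB9) in AGS, and at 1.14 and 0.218 FPKM in MKN1. HOXB9 in siHOXB9 was thus 27.0% of the control in AGS (95% counting interval 22.1% to 32.9%) and 19.1% in MKN1 (5.26% to 45.0%). Keratins KRT8 (1077 to 1880 FPKM) and KRT18 (654 to 837 FPKM) were high in all 4 libraries, while EPCAM was at 328 and 359 FPKM in AGS and only 2.14 and 2.70 FPKM in MKN1. KRT19 was likewise at 838 and 1001 FPKM in AGS and 2.02 and 2.66 FPKM in MKN1. CDH1 was low in both lines, at 1.63 (siScramble) and 3.28 FPKM (siHOXB9) in AGS and 0.0752 and 0.285 FPKM in MKN1. Of the leukocyte markers, CD3E was listed at 0 and PTPRC was at most 0.0183 FPKM, while CD68 was at 2.67 to 12.7 FPKM and LYZ, which gastric epithelium also makes, reached 2197 FPKM in AGS. Of the endothelial markers, VWF was at most 0.0466 FPKM, and CDH5 was listed at 0 in AGS and was at 1.95 (siScramble) and 0.856 FPKM (siHOXB9) in MKN1. Of the fibroblast markers, DCN, LUM and PDGFRB were at most 1.52, 6.90 and 1.31 FPKM, with DCN listed at 0 in AGS. COL1A1 was higher with siHOXB9 in both lines, at 15.8 and 29.3 FPKM in AGS and 35.0 and 43.8 FPKM in MKN1. The part of these markers in the results below was not tested.

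Among members that reached 1 FPKM, the one that differed most from its control was FOS, the founding partner of JUN in AP-1. It was at 9.17 FPKM in AGS siScramble, 5.13 FPKM in AGS siHOXB9, 5.34 FPKM in MKN1 siScramble and 2.29 FPKM in MKN1 siHOXB9. The siHOXB9 library was the lower of the pair in both lines, and the control of MKN1 lay at the level of the knockdown of AGS. With siHOXB9, FOS was at 55.9% of the control in AGS (95% counting interval 44.5% to 70.0%) and at 42.8% in MKN1 (30.1% to 61.0%). These values rest on an estimated 225 and 122 fragments in AGS and 117 and 47 in MKN1, and the intervals cover counting error only. On the scale log2((siHOXB9 FPKM + 1)/(siScramble FPKM + 1)), which is used for all changes below unless a ratio is named, the change was -0.73 in AGS and -0.95 in MKN1. Changes at least as large in size were found for 8.84% of 13252 genes in AGS and 4.57% of 13122 genes in MKN1, counting genes that reached 1 FPKM in the control or knockdown of that line.

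Relative to other protein-coding genes of the same library with at least 1 FPKM, FOS stood at percentile 31.9 in the AGS control and 20.1 in AGS siHOXB9, and at percentile 24.5 in MKN1 siScramble and 9.88 in MKN1 siHOXB9. Over both lines, the limma estimate for siHOXB9 against siScramble was -0.84 (SE 0.215, 4 libraries, lower in 2 of 2 lines). Its unadjusted p was 0.00562 and its Benjamini-Hochberg adjusted p over all 13758 genes tested was 0.487, so FOS did not pass the threshold of 0.05. Across the alternative settings this adjusted p ranged from 0.336 to 1.00. The change in MKN1 was past the size of a 2-fold difference under each of 4 other settings: -1.19 with a pseudocount of 0.1 FPKM, -1.01 with a common total, -1.04 after centring and -1.03 after quantile normalization. FOS (ENSG00000170345.9) lies on chromosome 14 from 75278774 to 75282230 on the forward strand of GRCh38 (GENCODE release 29), and its principal transcript has 4 exons and 2158 bases.

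**Figure D1:**
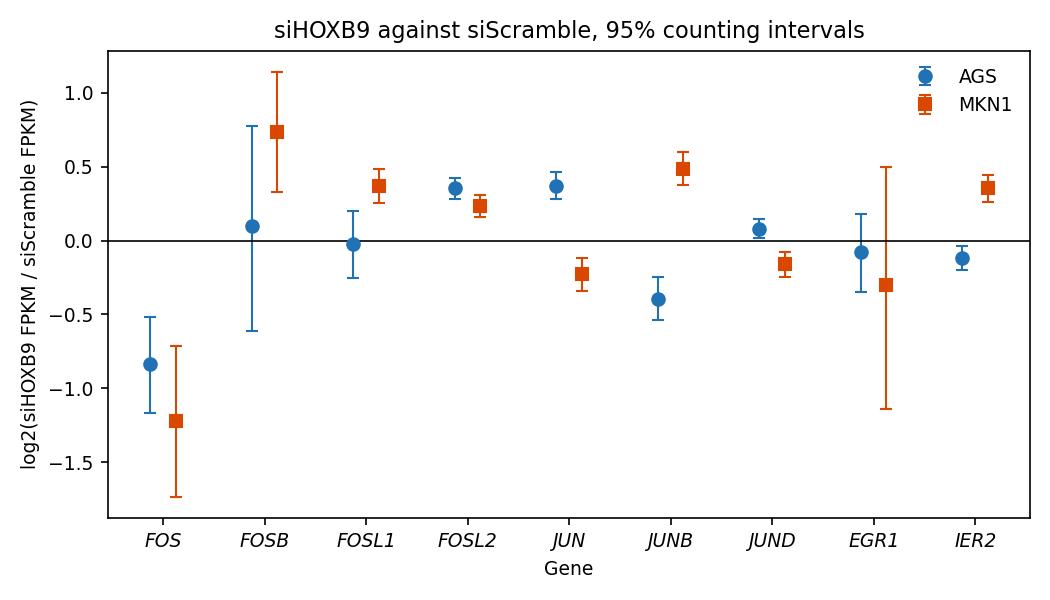
Ratio of siHOXB9 to siScramble FPKM on a log2 axis for 9 members in AGS (circles) and MKN1 (squares), 1 library per group; bars are 95% counting intervals from estimated fragments. FOS is the member whose intervals lie below 0 in both lines, FOSL2 has both above 0, and EGR3 is left out because it was listed at 0 in MKN1 siScramble.

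Promoter sequences of FOS, FOSB and JUNB are shown because these 3 carry a TATA box at nearly the same place. That of EGR1 is shown because it holds, within the short window searched, boxes of the kind through which serum response factor (SRF) acts on immediate early genes. Each run gives the 120 bases before the RefSeq start of the gene, 5′ to 3′ on the forward strand of GRCh38.p14, from RefSeq. Capitals mark matches to TATAAA, to TGACG (the core of the cAMP response element, CRE, or its reverse complement) and to the CArG box.
FOS, chr14:75278708-75278827: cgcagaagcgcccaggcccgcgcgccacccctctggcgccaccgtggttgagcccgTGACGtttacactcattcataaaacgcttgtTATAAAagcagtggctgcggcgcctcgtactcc
FOSB, chr19:45467876-45467995: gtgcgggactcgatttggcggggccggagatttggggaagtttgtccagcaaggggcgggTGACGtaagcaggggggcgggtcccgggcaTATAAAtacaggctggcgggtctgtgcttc
JUNB, chr19:12791366-12791485: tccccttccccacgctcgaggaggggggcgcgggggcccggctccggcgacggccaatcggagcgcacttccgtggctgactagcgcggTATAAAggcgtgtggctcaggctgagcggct
EGR1, chr5:138465359-138465478: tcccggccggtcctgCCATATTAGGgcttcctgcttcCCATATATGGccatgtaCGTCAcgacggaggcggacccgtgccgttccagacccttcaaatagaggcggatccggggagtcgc

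In FOS the CRE core begins at position -64 and the TATA box at -33, counted from the RefSeq start as position 0, and in FOSB they begin at -60 and -30. JUNB has its TATA box at -31 and a CRE core farther out, at -137, beyond the printed window. EGR1 has CArG boxes beginning at -105 and -83. In the 300 bases from 250 before to 50 after the start, on either strand, 8 of 8 members with a promoter in the table hold TGACG, where 24.6% of 35116 promoters of that length do. TATAAA is present in 3 of these 8 members and in 11.5% of all promoters, and the CArG box in 1 of 8 and in 1.29% of all. The palindromic full CRE, TGACGTCA, which contains the CRE core on both strands, occurs in JUND alone among the 8 and in 1.85% of all promoters. An AP-1 site, TGANTCA, was found in FOSL2 only (7.71% of all), and the GC box, GGGCGG, in 6 of 8 (45.0% of all). These matches describe letters in a window, and binding was not measured. Sequence farther than 250 bases before the start was not searched, so a member without a match here can hold one farther out. FOSL1 had no entry and EGR3 was not searched.

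**Figure D2:**
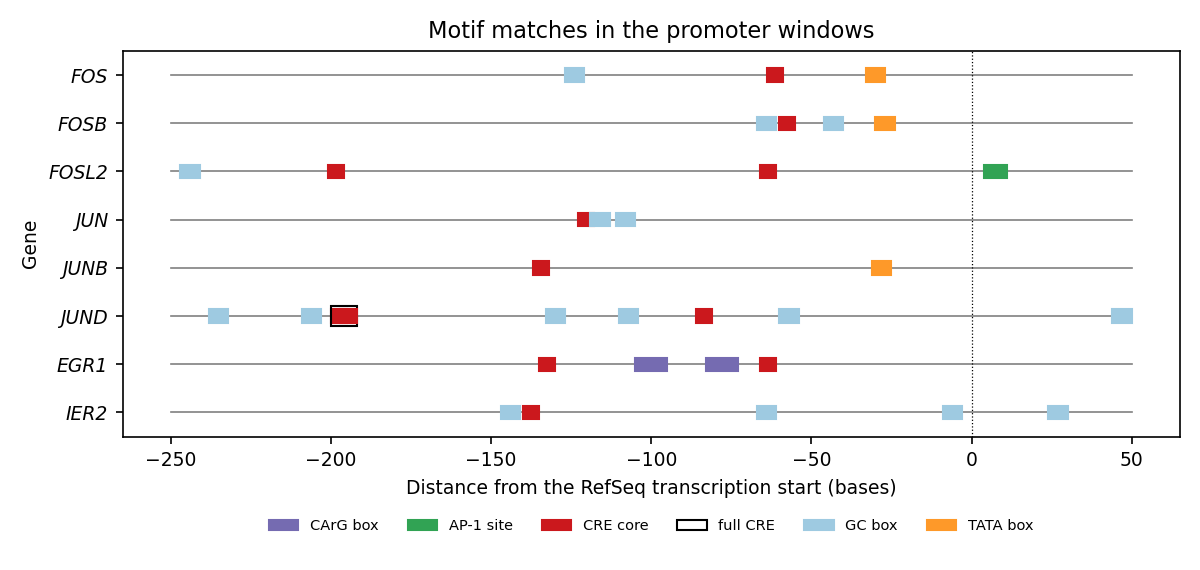
Motif matches on either strand in the promoter windows of 8 members, by distance in bases from the RefSeq transcription start; an outlined box marks the full CRE of JUND. FOS and FOSB share a CRE core near -60 followed by a TATA box near -30.

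The other FOS family members did not follow FOS. FOSL2 was the most even of them, at 36.6 FPKM in AGS siScramble, 46.8 in AGS siHOXB9, 38.1 in MKN1 siScramble and 44.8 in MKN1 siHOXB9. Its siHOXB9 value was the higher in both lines, at 128% of the control in AGS (counting interval 122% to 134%) and 118% in MKN1 (112% to 124%). The limma estimate over both lines was 0.29 (SE 0.173, higher in 2 of 2 lines, adjusted p = 0.812). Changes at least as large as that of FOSL2 occurred in 32.4% of genes in AGS and 49.8% in MKN1, so its shift was of ordinary size for these libraries.

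FOSL1 separated the lines rather than the siRNAs. It was at 18.2 FPKM in AGS siScramble, 17.9 in AGS siHOXB9, 68.1 in MKN1 siScramble and 88.0 in MKN1 siHOXB9, so both MKN1 libraries lay above both AGS libraries. In the same limma fit MKN1 exceeded AGS by 2.04 on the log2 scale (SE 0.187, adjusted p = 9.8e-05). With siHOXB9 it was at 129% of the control in MKN1 (counting interval 119% to 140%) and at 98.3% in AGS (83.8% to 115%), where the interval includes no change and the sign flips when libraries are rescaled to a common total, centred or quantile normalized. Within MKN1 a change as large was seen in 29.1% of genes. FOSL1 lies on chromosome 11 from 65892049 to 65900573 on the reverse strand.

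FOSB, a close relative of FOS, was scarce. It was at 0.814 FPKM in AGS siScramble, 0.870 in AGS siHOXB9, 2.11 in MKN1 siScramble and 3.51 in MKN1 siHOXB9, again with both MKN1 libraries above both AGS libraries. The limma difference between the lines was 1.02 (SE 0.231, adjusted p = 0.00708), but without the filter on low values the adjusted p was 0.114. In MKN1 the siHOXB9 value was 167% of the control (counting interval 126% to 221%, an estimated 86 and 133 fragments), in the direction opposite to FOS, and its change of 0.54 was matched in size by 15.6% of genes. In AGS the interval of FOSB was 65.6% to 171% and included no change.

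As FPKM are scaled by length, the family members can be set against each other. Summed over the 4 FOS family genes, the level was 64.8 FPKM in AGS siScramble, 70.7 in AGS siHOXB9, 114 in MKN1 siScramble and 139 in MKN1 siHOXB9. FOS made up 14.2% of that sum in AGS siScramble, 7.26% in AGS siHOXB9, 4.70% in MKN1 siScramble and 1.65% in MKN1 siHOXB9. FOSL1 and FOSL2 together made up 84.6%, 91.5%, 93.4% and 95.8% in the same order. The leading member was FOSL2 in AGS (56.5% and 66.2%) and FOSL1 in MKN1 (59.9% and 63.5%). The 3 JUN family genes summed to 285, 297, 236 and 243 FPKM in the same order, which is 4.40, 4.21, 2.08 and 1.75 times the FOS family sum.

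**Figure D3:**
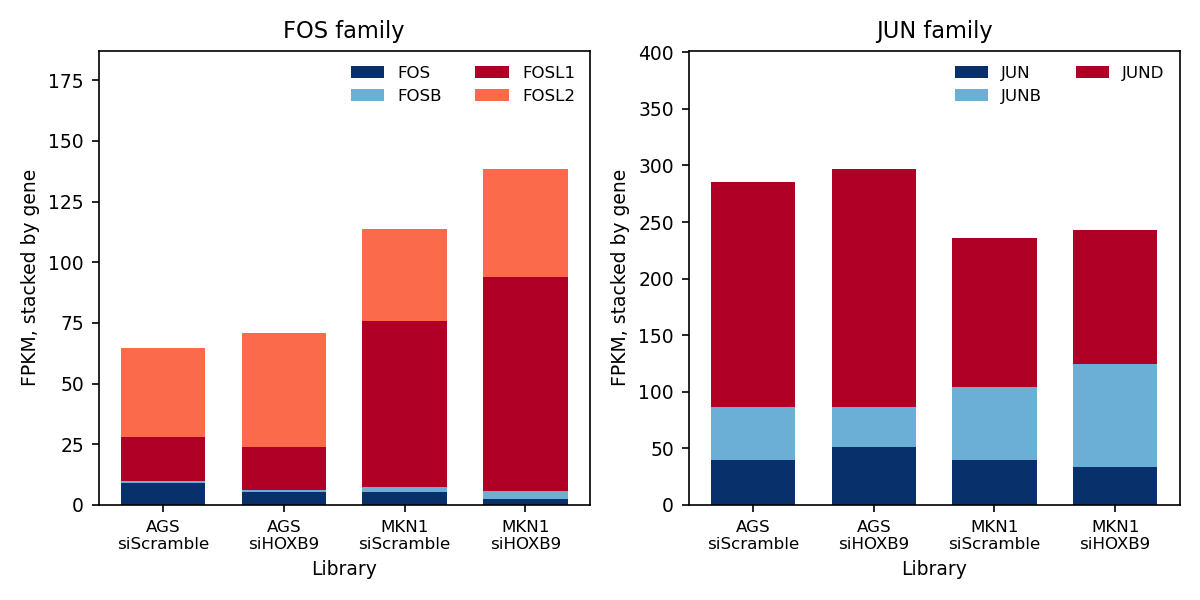
FPKM of the FOS family (left) and JUN family (right) stacked by gene, 1 bar per library, axes from 0. FOSL1 fills most of the FOS family bar in MKN1 and FOSL2 in AGS, and JUND is the largest part of each JUN family bar.

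JUND, the JUN protein with the steadiest supply, was the most abundant member in all 4 libraries. It was at 199 FPKM in AGS siScramble, 211 in AGS siHOXB9, 132 in MKN1 siScramble and 118 in MKN1 siHOXB9, at or above percentile 88.7 of expressed protein-coding genes. Both AGS libraries lay above both MKN1 libraries, by a limma difference of -0.71 for MKN1 against AGS (SE 0.169, adjusted p = 0.00884). Between siRNAs JUND differed by 0.08 in AGS and -0.16 in MKN1, sizes that 80.5% and 62.8% of genes reached.

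JUN, the classical partner of FOS, was at 39.6 FPKM in AGS siScramble, 51.2 in AGS siHOXB9, 39.4 in MKN1 siScramble and 33.6 in MKN1 siHOXB9. The controls of both lines overlapped in their counting intervals (37.7 to 41.5 FPKM in AGS and 37.4 to 41.4 in MKN1), and the siHOXB9 libraries lay on opposite sides of them: 129% of the control in AGS (counting interval 121% to 138%) and 85.4% in MKN1 (79.0% to 92.1%). The lines as such differed by -0.30 for MKN1 against AGS (SE 0.204, limma adjusted p = 0.240), which did not pass the threshold. JUN has 1 transcript of 1 exon and 3540 bases, on chromosome 1 from 58780788 to 58784327 on the reverse strand.

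JUNB, which pairs with FOS proteins and can restrain JUN, was at 46.7 FPKM in AGS siScramble, 35.6 in AGS siHOXB9, 65.0 in MKN1 siScramble and 91.1 in MKN1 siHOXB9. Here too the lines differed in sign, with 76.2% of the control in AGS (counting interval 69.0% to 84.2%) and 140% in MKN1 (130% to 151%), each opposite to JUN in the same line. JUNB exceeded JUN in AGS siScramble and in both MKN1 libraries, and was below it in AGS siHOXB9. Both MKN1 libraries lay above both AGS libraries, by a limma difference of 0.90 (SE 0.233, adjusted p = 0.0128), under the size of 1 asked of a call. After centring on the median gene the difference was 1.09, past that size. JUNB shares exon sequence with HOOK2 on the opposite strand, and the labels describe no strand-keeping step. HOOK2 was at 41.2 FPKM in AGS siScramble, 58.6 in AGS siHOXB9, 9.90 in MKN1 siScramble and 10.7 in MKN1 siHOXB9, and its part in the JUNB values was not tested.

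**Figure D4:**
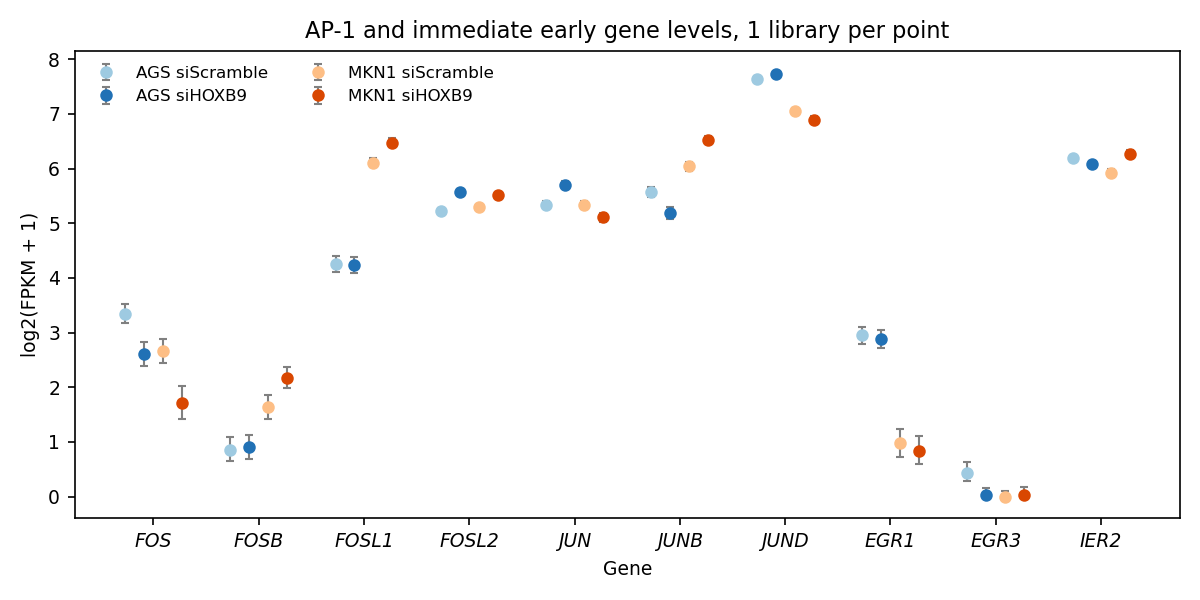
Level of the 10 members as log2(FPKM + 1) in each library; points are 1 library each and bars are 95% counting intervals. JUND is highest and EGR3 lowest, FOSL1 and JUNB are higher in both MKN1 libraries, and EGR1 is higher in both AGS libraries.

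EGR1, a zinc finger factor whose transcription responds to ERK and SRF signalling, was at 6.72 FPKM in AGS siScramble, 6.37 in AGS siHOXB9, 0.966 in MKN1 siScramble and 0.784 in MKN1 siHOXB9. AGS lay above MKN1 in every pairing of libraries, and the limma difference for MKN1 against AGS was -2.01 (SE 0.214, adjusted p = 0.000206). Between siRNAs EGR1 was at 94.8% of the control in AGS (counting interval 78.6% to 113%) and at 81.2% in MKN1 (45.4% to 141%). Both intervals include no change, and the sign in AGS flips with a common total. The MKN1 values rest on an estimated 32 and 24 fragments, and their interval overlaps that of FOS in MKN1 (30.1% to 61.0%). EGR1 lies on chromosome 5 from 138465490 to 138469315 on the forward strand.

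IER2, an intronless immediate early gene in its principal transcript, was at 72.4 FPKM in AGS siScramble, 66.7 in AGS siHOXB9, 59.8 in MKN1 siScramble and 76.3 in MKN1 siHOXB9. The values of the lines overlap, with a limma difference of -0.04 (SE 0.187, adjusted p = 0.865). With siHOXB9 it was at 92.1% of the control in AGS (counting interval 87.0% to 97.6%) and at 128% in MKN1 (120% to 136%). The AGS change of -0.12 shrank to -0.02 with a common total, -0.06 after centring and -0.04 after quantile normalization. An antisense gene, AC011446.2, shares exon sequence with IER2 and was not analysed here.

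EGR3, a zinc finger relative of EGR1, was near the limit of detection. It was at 0.356 FPKM in AGS siScramble and 0.0196 FPKM in AGS siHOXB9, listed at 0 in MKN1 siScramble and at 0.0231 FPKM in MKN1 siHOXB9. In AGS this corresponds to an estimated 19 fragments against 1, a ratio of 5.50% with a counting interval of 0.131% to 34.1%. In MKN1, with 0 and 1 fragments, no difference was detectable. EGR3 stayed under the filter of 1 FPKM. Without that filter the limma estimate for siHOXB9 was -0.19 (adjusted p = 0.795, lower in 1 of 2 lines). It also shares exon sequence with the opposite-strand gene AC055854.1, and the gene lies on chromosome 8 from 22687659 to 22693302.

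Seen as a group, the members did not shift in one direction with siHOXB9. Of the 8 members with at least 1 FPKM in AGS, 5 were lower and 3 higher, with a median change of -0.04 that turned to 0.04 with a common total, 0.01 after centring and 0.02 after quantile normalization, where the median over all 13252 genes was -0.06. In MKN1 3 of 8 were lower and 5 higher, with a median of 0.29, where the median over all 13122 genes was 0.09. Of all genes, 57.0% were lower in AGS and 36.9% in MKN1, shares that moved to 46.2% and 46.1% with a common total. No member passed the 2-fold size rule in AGS or MKN1, where 3.89% and 4.05% of all genes did, but FOS in MKN1 passed it under each of the 4 other settings named with its values, where 3.90% to 7.81% of all genes did. At 1.5-fold, 1 of 8 members passed in each line, FOS in both cases, against 14% of all genes in AGS and 13.4% in MKN1. FOS is thereby among the 1.14% of 11547 genes measured in both lines that were lower by 1.5-fold or more in both.

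Over both lines limma called 0 of the 9 members tested between siHOXB9 and siScramble, where 0.00727% of all genes were called, which is 1 gene, RP11-192N10.2, at 10.6 and 6.51 FPKM in the AGS and MKN1 controls and listed at 0 in both siHOXB9 libraries (named after its values were seen). At an unadjusted p under 0.05 there was 1 of 9 members, FOS, where 7.12% of all genes had such a p. There were 158 genes with a smaller p than FOS. The targeted gene HOXB9 was not called in this fit either (limma estimate -1.25, SE 0.268, adjusted p = 0.355). A lack of calls among the members therefore does not show a lack of change. By counting intervals, FOS was the only member below its control in both lines and FOSL2 the only member above it in both. JUN, JUNB, JUND and IER2 had changes of opposite sign in the lines, and FOSB and FOSL1 had intervals apart from no change in MKN1 only. Whether a change differs between the lines could not be tested, as each line has 1 library per siRNA.

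**Figure D5:**
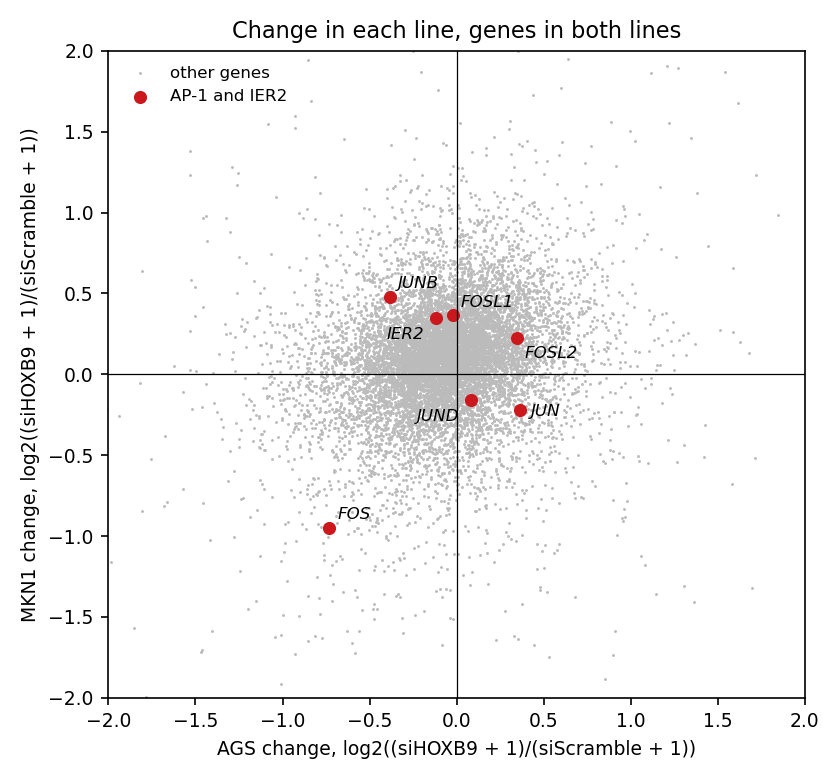
Change with siHOXB9 in AGS (x axis) and MKN1 (y axis), as log2((siHOXB9 FPKM + 1)/(siScramble FPKM + 1)), for 11547 genes measured in both lines, of which 72 lie outside the axes; red points are the 7 members among them. FOS sits at -0.73 and -0.95, away from the dense centre, and the other 6 lie within it or at its edge.

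More members passed the limma threshold between the lines than between the siRNAs. In size, the siRNA estimate exceeded the line estimate for FOS (-0.84 against -0.79), FOSL2 (0.29 against -0.0027) and IER2 (0.12 against -0.04). For the other members tested the line estimate was the larger. At an adjusted p of 0.05 or less, 6 of 9 members differed between MKN1 and AGS, where 59.1% of all genes did. Without the filter on low values 2 of 10 did, FOSL1 and EGR1, where 13% of all genes did, and the FOS, FOSB, JUNB and JUND differences no longer passed (adjusted p = 0.109, 0.114, 0.178 and 0.0747). With a size of at least 1 as well, 3 of 9 were called, against 37.1% of all genes: FOSL1 and FOSB were higher in MKN1 (16.2% of all genes were) and EGR1 was lower (20.9% of all genes were). FOSB stayed under 1 FPKM in AGS (0.814 and 0.870) and EGR1 in MKN1 (0.966 and 0.784). Each thus passed the low-value filter only through the line where it was higher, so the filter favoured that direction. For FOS the MKN1 minus AGS difference was -0.79 (SE 0.215, adjusted p = 0.0158), short of that size, and the adjusted p was 0.0548 after centring and 0.0566 after quantile normalization, over the threshold. For FOSL2 the difference was -0.0027 (SE 0.173, adjusted p = 0.991), the smallest of the 9.

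Among the wider set of AP-1 relatives, JDP2, a repressor that dimerizes with JUN proteins, was at 26.0 FPKM in AGS siScramble, 13.7 in AGS siHOXB9, 42.9 in MKN1 siScramble and 34.1 in MKN1 siHOXB9. It was lower with siHOXB9 in both lines (changes -0.88 and -0.32, limma estimate -0.60, SE 0.206, adjusted p = 0.631). BATF3, another JUN partner, was at 0.106 and 0.232 FPKM in AGS and at 10.3 and 6.25 FPKM in MKN1. MAFG, a small MAF protein, was at 13.9 FPKM in MKN1 siScramble and 24.5 in MKN1 siHOXB9, and BATF2 stayed at or below 1.07 FPKM throughout. Of 12 such genes, 8 of the 11 measured in AGS and 7 of the 10 measured in MKN1 were lower with siHOXB9, against 57.0% and 36.9% of all genes. With a common total 7 were lower in each line, against 46.2% and 46.1% of all genes. The medians were -0.19 and -0.12, negative under each scaling, and those over all genes were -0.06 and 0.09. None of these relatives passed the 2-fold rule in either line.

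Other immediate early genes were split in direction. Of 24 with at least 1 FPKM in any library, 10 were lower and 12 higher among the 22 measured in AGS (median 0.04), and 12 were lower and 12 higher in MKN1 (median 0.01, which turned to -0.07 with a common total, -0.09 after centring and -0.10 after quantile normalization). Of all genes, 57.0% were lower in AGS and 36.9% in MKN1. None of the 24 passed the 2-fold rule and limma called none of them between siRNAs. The largest changes were those of IER5L (-0.59 in AGS and 0.34 in MKN1), NR4A2, an orphan nuclear receptor (-0.19 and -0.65), PHLDA1 (-0.38 and -0.56) and PPP1R15A, a phosphatase subunit of the stress response (0.50 and -0.06). PHLDA1 was at 24.0 FPKM in AGS siScramble, 18.3 in AGS siHOXB9, 8.97 in MKN1 siScramble and 5.75 in MKN1 siHOXB9, lower in both lines like FOS.

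Upstream of these genes, SRF and its cofactors carry the serum signal to CArG boxes, and ERK and JNK kinases phosphorylate the cofactors and JUN. Of 7 SRF and cofactor genes 3 of 6 measured were lower in AGS and 1 of 7 in MKN1, against 57.0% and 36.9% of all genes. MKL1 (MRTF-A), an actin-regulated SRF cofactor, was at 37.9 FPKM in AGS siScramble, 38.3 in AGS siHOXB9, 27.8 in MKN1 siScramble and 51.0 in MKN1 siHOXB9. MKL2 (changes 0.63 and 0.26), ELK3 (-0.30 and 0.51) and ELK4 (-0.25 and 0.33) followed in size. Among 19 measured ERK and JNK pathway kinases, 12 were lower in AGS (median -0.10) and 5 in MKN1 (median 0.22), where 57.0% and 36.9% of all genes were lower. The medians were -0.01 and 0.14 with a common total, and 8 were lower in MKN1 after centring, where 50% of all genes were. None of the 19 passed the 2-fold rule. The largest change was that of RPS6KA3, a kinase downstream of ERK (-0.44 in AGS and -0.04 in MKN1), followed by RPS6KA5, MAP3K1 and MAP3K11. NAB1 and NAB2, corepressors of EGR proteins, differed by -0.05 and -0.29 in AGS and by 0.42 and -0.05 in MKN1, and the AGS sign of NAB1 flips with a common total, centring or quantile normalization. Of 11 genes for degradation and repression of AP-1, 8 were lower in AGS and 5 in MKN1, against 57.0% and 36.9% of all genes. In AGS 6 were lower with a common total, centring or quantile normalization, against 46.2%, 50% and 49.6% of all genes. In MKN1 6 were lower after centring, against 50% of all genes. None was past 2-fold, and the largest change was that of CSK, at 76.6 FPKM in MKN1 siScramble and 47.0 in MKN1 siHOXB9. DET1 (-0.45 in AGS and -0.43 in MKN1) and SIRT1 (-0.32 in AGS) were also among the larger ones.

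Genes described elsewhere as AP-1 targets were counted in each line. Of 18 measured in AGS 12 were lower with siHOXB9 (median -0.24), where 57.0% of all genes were lower. The 2-fold rule was passed by 1 of the 18, where 3.89% of all genes passed it. That gene was MMP1, interstitial collagenase, with 185 FPKM in the AGS control and 49.2 with siHOXB9. In MKN1 MMP1 was at 0.0508 and 0.0549 FPKM. Of 23 measured in MKN1 10 were lower and 13 higher, where 36.9% of all genes were lower. Their median was 0.05, which turned to -0.02 with a common total, -0.04 after centring and -0.05 after quantile normalization. In those settings 13, 14 and 14 of 23 were lower, where 46.1%, 50% and 48.2% of all genes were. The 2-fold rule was passed by 2 of the 23 in MKN1, where 4.05% of all genes passed it. They were IL11, an interleukin 6 family cytokine (80.4 FPKM with siScramble and 25.2 with siHOXB9), and ITGA5, the fibronectin receptor subunit (72.5 and 150.5). HMGA1, a chromatin protein, was at 698 FPKM in the AGS control and 428 with siHOXB9. Limma called none of 23 between siRNAs. Between the lines it called 13 of 23 higher in MKN1 and 1 lower, MMP1, where 16.2% and 20.9% of all genes were so called. MMP1, IL11 and ITGA5 entered the list with their values in these libraries known.

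Heat shock genes, which like immediate early genes answer to handling of cells, were lower with siHOXB9 in 7 of 9 cases in each line, with medians of -0.24 in AGS and -0.12 in MKN1 that stayed negative under each scaling. Of all genes, 57.0% were lower in AGS and 36.9% in MKN1. With a common total 5 of 9 were lower in AGS and 7 of 9 in MKN1, against 46.2% and 46.1% of all genes. The summed level of the heat shock genes was 2900 FPKM in AGS siScramble, 2622 in AGS siHOXB9, 5453 in MKN1 siScramble and 4970 in MKN1 siHOXB9. The largest changes were those of HSPD1 (-0.45 in AGS), HSPE1 (-0.42), HSP90AA1 and DNAJB1 (both -0.24). HSPA1A was listed at 0 in all 4 libraries and HSPA1B in 3 of them. Their part in the FOS values was not tested, and the time between transfection and harvest is not given in the sources used here.

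For 4 members the protein-coding genes with the most similar pattern were sought among 9618 candidates, by the Euclidean distance of log2(FPKM + 1) values centred over the 4 libraries. FOS was nearest to PRELID2 (distance 0.16), SLMAP (0.17) and SLC18B1 (0.19), and PRELID2 had 8.26, 5.16, 4.61 and 1.86 FPKM in the order AGS siScramble, AGS siHOXB9, MKN1 siScramble, MKN1 siHOXB9. FOSL1 was nearest to KLHL21 (0.09), SKP2 (0.11) and PRKAA1 (0.11), and JUN to RCOR3 (0.03), STAT6 (0.06) and DHTKD1 (0.09). Genes near EGR1 were COG6 (0.03) and IAH1 (0.06). With 4 libraries many genes lie close to any pattern, and these names describe likeness of values alone.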

How the data were processed

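RNA-seq of 4 libraries was analysed, 1 per line and siRNA. The labels describe poly-T purification, heat fragmentation, random priming and the NEBNext Ultra kit, and no step that marks strand. The deposited FPKM values were computed by the authors, and GRCh38 and hg38 are named per the submitters' processing notes. Aligner, counter and annotation release: not given in the sources used here. All 57815 rows were kept as features. Positions and transcripts came from GENCODE release 29 and promoters from RefSeq (GRCh38.p14, 8 members searched).

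Fragments were estimated from 318 to 338 low values per library of genes with 1 transcript, of which 64.7% to 66.0% lay within 0.05 of a whole number when lengths were shortened by 260 bases. Members' fragments used the principal transcript, the longest where several qualify. Intervals for a ratio are exact (Clopper-Pearson) on these estimates at 95%, for levels exact Poisson, and cover counting error only.

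Changes were log2((FPKM + 1)/(FPKM + 1)) with 1 library per group and no test. limma 3.58.1 (R 4.3.3) modelled log2(FPKM + 1) by cell line plus siRNA with an intensity trend, for the 13758 genes reaching 1 FPKM in 2 or more libraries. It leaves 1 residual degree of freedom. Tests were two-sided, adjusted by Benjamini-Hochberg at 0.05, and between lines a size of 1 was also asked. limma moderated the spread of each gene with that of other genes of similar level (empirical Bayes). The p-values thus rest on disagreement between the lines, of the gene itself and of other genes. They hold no variation between cultures of the same line and siRNA. For MKN1 against AGS, the libraries of a line carry different siRNAs. Both scripts were tested on simulated data. Named beside the members were up to 4 genes per list with the largest change, and up to 3 of the nearest genes of FOS, FOSL1, JUN and EGR1; some items are not reported here. The members, lists and motifs were chosen with earlier results of these data known. Alternatives were a pseudocount of 0.1 FPKM, other filters, 3 rescalings, a 1.5-fold rule, other variance settings and no line block.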

Additional observations from a re-analysis of the deposited data

Results flagged for a closer look

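JUN, JUNB, JUND and IER2 are singled out because siHOXB9 and siScramble differed in opposite directions in the lines, with both counting intervals apart from no change and the same signs under each rescaling. The counting intervals hold for the values before rescaling only. For IER2 in AGS the change of -0.12 shrank to -0.02 with a common total, -0.06 after centring and -0.04 after quantile normalization, so its sign there is weakly held. The change in MKN1 minus the change in AGS was -0.59 for JUN, 0.86 for JUNB, -0.24 for JUND and 0.46 for IER2 on the log2(FPKM + 1) scale. JUNB differed by -0.38 in AGS and 0.48 in MKN1, and JUN by 0.36 and -0.22. These differences were not tested, since each rests on 1 library per line and siRNA, and counting intervals hold no variation between cultures.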

How the results depend on the processing

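With 1 library per group no library can be left out of a comparison. The labels give no replicate numbers, and the fit over both lines pairs the libraries by cell line. The 2-fold rule gave 516 genes in AGS and 531 in MKN1. With a pseudocount of 0.1 FPKM it gave 1037 and 1025, with a filter of 5 FPKM 256 and 257, and at 1.5-fold 1856 and 1752. The share of upward calls was 43.2% in AGS and 52.0% in MKN1, and with a common total 54.2% and 44.8%, after centring 51.7% and 39.7%, and after quantile normalization 47.5% and 44.0%. Genes called by limma between siRNAs numbered 1 as reported, 8 with a filter of 5 FPKM, 7 with the robust option, and 0 with a pseudocount of 0.1 FPKM, a common total, centring, quantile normalization, no filter or no line block. The members called were 0 under each of these. Genes called between the lines numbered 5109, and 2750 without a filter. The cause of these shifts was not tested. FOSL2 between the lines turned to 0.19 after centring and 0.030 after quantile normalization, and IER2 to 0.15 after centring. FOS was lower in both lines under all 4 other settings of pseudocount or scaling, from -0.83 to -0.65 in AGS and from -1.19 to -1.01 in MKN1. Depth limits EGR3 (19 fragments or fewer), EGR1 in MKN1 (32 and 24) and FOSB in AGS (37 and 38) most.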
